A study of Homo sapiens with 12 samples.

Results

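The genes described here are those whose mRNA stayed near its starting level through the first day of TGFβ and was at least doubled at 48 h and at 96 h. A549 cells, an established line from a human lung carcinoma, were treated with 4 ng/mL TGFβ to induce epithelial-to-mesenchymal transition, and were collected at the start (0 h), after 0.5 h, and then at 12, 24, 48 or 96 h. Each time point has 2 libraries, each of 384 wells that received a single sorted cell apiece, and the 3′ ends of each cell's mRNA were counted by unique molecular identifiers (UMIs). All groups were labelled with the same line and the same agent, the medium with TGFβ was replaced every other day, and no untreated cells kept for 48 or 96 h were analysed here, so the time in culture and the time in TGFβ cannot be told apart.

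Members were chosen by measured values. UMIs of 1871 kept wells were summed per library and given as counts scaled to a common library total over protein-coding genes (CPM). A member had a mean at 12 and 24 h of 0.67 to 1.5 times the mean at 0 and 0.5 h, 48 h and 96 h means both at least 2 times that starting mean, and at least 10 CPM at 96 h. These limits were met by 87 of 15871 protein-coding genes, of which 7502 reached 10 CPM at 96 h. The limits at 48 and 96 h alone were met by 445 genes, and 357 of these were already more than 1.5 times higher at 12 and 24 h. Changes of the members between the late and the earlier libraries in kept wells are therefore given as a description, with no test. Tests are kept for comparisons and wells that the choice did not use directly.

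TGFβ signals through receptor kinases and SMAD transcription factors, which act within the hour, and the loss of epithelial junctions and gain of matrix and motility genes follow over days. The lysosome breaks down what the cell takes in and what autophagy delivers. Its soluble enzymes and NPC2 are tagged with mannose 6-phosphate in the Golgi and carried there by the mannose 6-phosphate receptor, the product of IGF2R, which also takes up insulin-like growth factor 2.

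The promoters of 6 members are printed: NPC2, IGF2R, GNPTG and SLC38A7 belong to the lysosomal route, and BTG1 and C12orf75 were called higher at 96 h than at 48 h. DNER and SLFN5, also called there, had no promoter to search. The printed stretches of NPC2 and C12orf75 lie within the GENCODE spans given below, so a start farther upstream is annotated there. Each sequence is from RefSeq on GRCh38.p14, 5′ to 3′ on the gene's strand, from 250 bases before to 50 bases after the annotated start. Capitals mark matches to the motifs spelled out in the next paragraph.
NPC2 (chr14:74493463-74493762, minus strand): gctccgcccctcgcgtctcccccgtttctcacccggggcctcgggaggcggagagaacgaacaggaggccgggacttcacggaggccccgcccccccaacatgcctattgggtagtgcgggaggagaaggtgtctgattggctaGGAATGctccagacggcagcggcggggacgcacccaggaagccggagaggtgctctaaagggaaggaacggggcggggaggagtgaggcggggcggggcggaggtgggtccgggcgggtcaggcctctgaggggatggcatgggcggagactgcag
IGF2R (chr6:159968832-159969131, plus strand): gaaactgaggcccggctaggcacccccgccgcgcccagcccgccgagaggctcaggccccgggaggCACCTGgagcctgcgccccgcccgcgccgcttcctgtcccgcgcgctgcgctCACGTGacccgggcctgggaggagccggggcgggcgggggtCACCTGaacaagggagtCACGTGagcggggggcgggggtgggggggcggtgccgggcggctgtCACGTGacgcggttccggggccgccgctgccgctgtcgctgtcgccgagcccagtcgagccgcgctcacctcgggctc
GNPTG (chr16:1351681-1351980, plus strand): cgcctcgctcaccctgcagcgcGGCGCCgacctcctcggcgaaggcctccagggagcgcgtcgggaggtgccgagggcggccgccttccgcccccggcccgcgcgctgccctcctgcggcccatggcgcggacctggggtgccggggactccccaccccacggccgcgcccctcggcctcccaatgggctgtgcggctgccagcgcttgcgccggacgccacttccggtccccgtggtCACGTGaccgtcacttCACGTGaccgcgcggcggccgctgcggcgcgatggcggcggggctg
SLC38A7 (chr16:58684721-58685020, minus strand): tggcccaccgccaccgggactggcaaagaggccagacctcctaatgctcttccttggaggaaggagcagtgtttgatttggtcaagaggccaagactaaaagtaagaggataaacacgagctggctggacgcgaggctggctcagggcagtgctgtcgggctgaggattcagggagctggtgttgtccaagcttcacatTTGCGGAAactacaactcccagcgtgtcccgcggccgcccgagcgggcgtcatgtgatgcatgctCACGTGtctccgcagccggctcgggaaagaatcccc
BTG1 (chr12:92145797-92146096, minus strand): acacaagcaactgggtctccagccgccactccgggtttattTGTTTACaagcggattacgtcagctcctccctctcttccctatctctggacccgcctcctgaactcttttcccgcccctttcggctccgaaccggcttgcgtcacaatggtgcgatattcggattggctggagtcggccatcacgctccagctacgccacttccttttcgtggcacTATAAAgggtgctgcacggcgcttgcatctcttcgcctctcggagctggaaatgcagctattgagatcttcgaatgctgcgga
C12orf75 (chr12:105330441-105330740, plus strand): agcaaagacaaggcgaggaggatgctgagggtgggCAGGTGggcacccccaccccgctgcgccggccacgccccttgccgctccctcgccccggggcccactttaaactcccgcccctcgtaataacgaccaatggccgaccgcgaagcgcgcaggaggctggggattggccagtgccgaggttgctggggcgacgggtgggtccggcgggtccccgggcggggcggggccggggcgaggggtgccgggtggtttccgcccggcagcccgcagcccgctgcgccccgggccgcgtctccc

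Promoters were matched by symbol for 63 of the 87 members and searched on both strands beside 12460 promoters of protein-coding genes in the table. The E-box CACGTG, bound by MYC and by the TFE factors that act on lysosomal genes, was in 11.1% of the members' promoters and 9.29% of all promoters. It stands 3 times in the promoter of IGF2R, 2 times in that of GNPTG and 1 time in that of SLC38A7. It was not matched in those of NPC2, SLC49A4 and SVIP. The other members with it were CEP162, FXYD6, HSPBAP1 and IVNS1ABP, and the members' share was near that of all promoters. The E-box CACCTG of ZEB and SNAI factors was in 12.7% of the members' promoters and 18.8% of all, and the GC-rich SMAD motif GGCGCC in 20.6% and 28.7%. The TEAD site GGAATG, which is in the promoter of NPC2, was in 19.05% and 10.98%, and the TATA box TATAAA, which is in that of BTG1, in 7.94% and 7.24%. The AP-1 site TGANTCA was in 4.76% and 5.04%, the C/EBP site TTGCNNAA in 6.35% and 7.68%, the GATA site AGATAA in 4.76% and 6.04%, and the FOX site TGTTTAC in 3.17% and 2.40%. The glucocorticoid element ACANNNTGT was in 4.76% and 3.03%, an interferon-stimulated element in 1.59% and 2.93%, and an NF-kB site in 1.59% and 2.05%. The SMAD box pair GTCTAGAC and the CRE TGACGTCA were in 0 of the 63, against 0.177% and 2.92% of all promoters. These are matches of letters in 300 bases and not measured binding. Median GC content was 64.3% in the members' promoters and in all promoters.

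The libraries held 1264044 to 4500036 protein-coding UMIs in 54 to 217 kept wells, and the 96 h libraries were the smallest, with 54 and 64 wells. At the smallest depth 1 UMI is 0.791 CPM. Epithelial markers, led by KRT8 and KRT18, summed to 1032 to 1320.2 CPM in the 4 libraries of 48 and 96 h and 2012 to 3383 CPM in the 8 earlier libraries. Of 10 fibroblast markers 9 were in the table, and they summed to 23.6, 82.5, 102.8 and 65.3 CPM late against 18.3 to 37.1 CPM earlier. COL6A3, a collagen VI chain, made up most of that sum, with 15.2, 75.9, 94.1 and 62.6 CPM late against 18.02 to 34.9 CPM, and LUM, a proteoglycan, had 2.58, 3.08, 3.96 and 1.998 CPM late against 0 to 0.545 CPM, while DCN was at 0 to 0.791 CPM and COL3A1 at 0 in the late libraries. The 7 endothelial markers of 10 that were in the table summed to 4.75 to 26.5 CPM late against 3.58 to 53.8 CPM, nearly all of it ESAM with PECAM1 at 0 late. The 4 immune markers of 10 that were in the table summed to 0 to 0.969 CPM late against 0.222 to 10.4 CPM, with PTPRC at 0 in all 12 libraries. The part of these markers in the results was not tested. The late libraries also held more long non-coding RNA, 1.23% to 1.65% of UMIs against 0.864% to 1.09% earlier, and more UMIs assigned to processed pseudogenes, 0.9995%, 1.83%, 1.36% and 1.57% against 0.723% to 1.14% earlier. The lowest of these 4 late values is the 48 h replicate 1 library, and the part of either RNA type in the results was not tested.

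The members fell into 2 kinds. In 61 of 87 members all 4 libraries of 48 and 96 h were above all 8 earlier libraries, beside 5.72% of all genes of at least 10 CPM at 96 h; the same values chose the members, so nothing is read from this count or from its parts by role below. In the other 26 the ranges overlapped, and in 12 members the 48 h replicate 1 library stayed under 1.5 times the starting mean. The late mean over the starting mean ranged from 2.03 to 14.5 with a median of 2.76, and 14 members were at 4 times or more. The heat map of members by library shows both kinds.

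**Figure D1:**
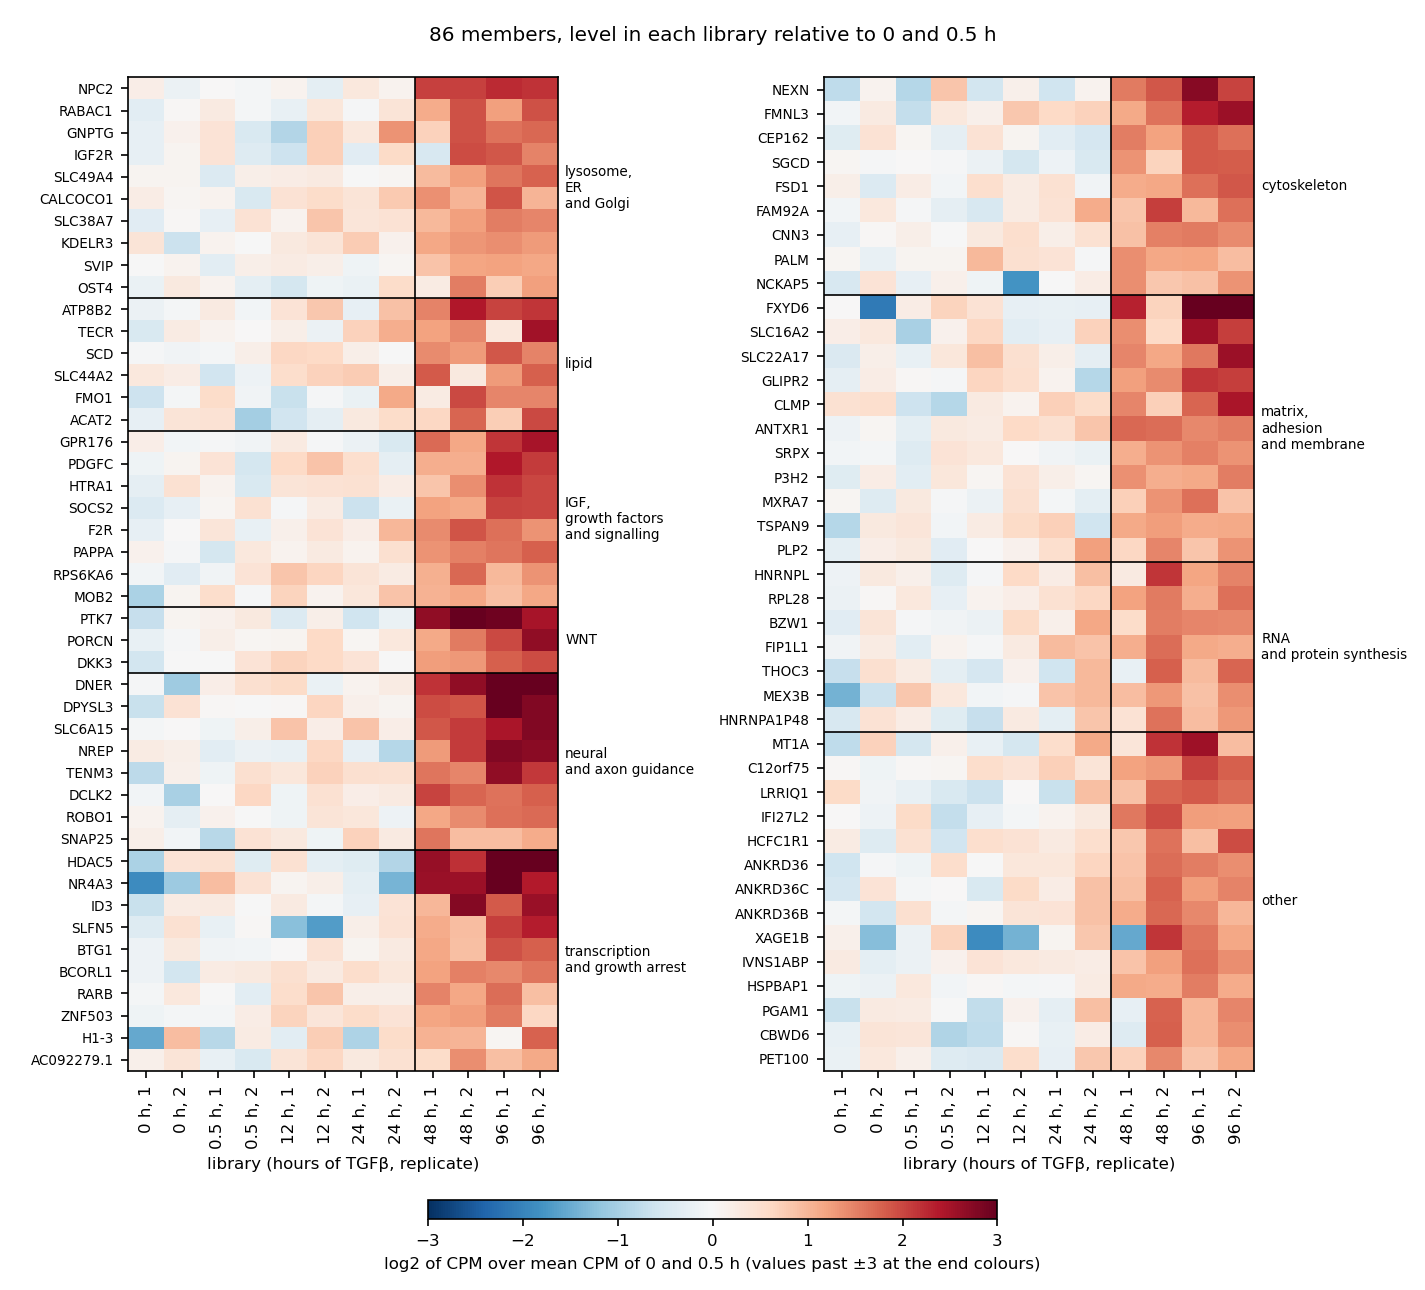
Level of 86 of the 87 members (rows, grouped by role) in each of the 12 libraries (columns, hours of TGFβ and replicate), as log2 of CPM over the mean CPM of 0 and 0.5 h. The columns right of the vertical line are the 48 and 96 h libraries, which chose the members; 48 h replicate 1 is pale or blue for IGF2R, PGAM1, THOC3, CBWD6 and XAGE1B, while NPC2, SCD, DNER and PTK7 are raised in all 4.

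Of the members in the lysosome, endoplasmic reticulum and Golgi, NPC2 was the most even. NPC2, which hands cholesterol to NPC1 inside the lysosome (chr14:74476192-74494177, minus strand, 7 exon blocks), had 245 and 187 CPM at 0 h, 214 and 205 CPM at 0.5 h, 227 and 172 CPM at 12 h, 264 and 230.5 CPM at 24 h, 882 and 886 CPM at 48 h, and 1004 and 956 CPM at 96 h. Replicates were close at every time, the late libraries stood far above all others, and the values before 48 h stayed between 172 and 264 CPM. The late mean was 4.38 times the starting mean. SLC49A4, a lysosomal pyridoxine transporter, had 34.2, 41.5, 54.6 and 60.6 CPM at 48 and 96 h against 13.4 to 21.5 CPM earlier. SLC38A7, an amino acid transporter of the lysosomal membrane, had 15.5, 18.5, 22.9 and 22.0 CPM against 6.27 to 14.2 CPM earlier. Both are separate from the earlier libraries, SLC38A7 by a narrow margin. CALCOCO1, a receptor for autophagy of the endoplasmic reticulum, was at 8.66 to 15.8 CPM late and 3.11 to 7.33 CPM earlier.

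Secretory members were also among them. KDELR3, which returns proteins with a KDEL signal to the endoplasmic reticulum, had 64.0, 71.3, 74.4 and 68.6 CPM late against 18.2 to 48.7 CPM earlier. RABAC1, a Rab-binding protein of the Golgi, had 64.6, 113, 70.4 and 113 CPM against 24.0 to 39.2 CPM. SVIP, an inhibitor of degradation from the endoplasmic reticulum, had 95.9, 120.5, 123 and 119 CPM against 43.0 to 63.2 CPM. All of these had late libraries above every earlier one, with RABAC1 higher in replicate 2 at both late times. OST4, a subunit of the oligosaccharyltransferase, did not, with 50.4 and 123 CPM at 48 h and 70.4 and 99.2 CPM at 96 h against 29.2 to 61.9 CPM earlier.

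IGF2R and GNPTG, which lie on the tagging and sorting of lysosomal enzymes, were uneven between libraries. IGF2R (chr6:159969082-160113507, plus strand) had 901 and 1127 CPM at 0 h, 1430.2 and 813 CPM at 0.5 h, 695 and 1761 CPM at 12 h, 838 and 1592 CPM at 24 h, 768 and 4124 CPM at 48 h, and 3882 and 2997 CPM at 96 h. The 48 h replicate 1 library was as low as the starting libraries, and replicate 2 was above replicate 1 at 4 of the 6 times. In 96 h replicate 1 a single well held 1314 of 4907 UMIs of IGF2R, 26.8%. The median over cells, which that well does not set, was 1785 CPM in that library, 2529.6 CPM in 96 h replicate 2, and 739.95 and 3851 CPM in the 48 h libraries. IGF2R was also found in 97.4% of the 2187 wells with under 1000 genes, whose median was 975 UMIs, and made up 11644 CPM of their UMIs against 1411.5 CPM in kept wells, a ratio of 8.25. Over the 87 members the median of that ratio was 1.29. In those wells too IGF2R was uneven over the libraries, at 7673 and 19048 CPM at 48 h and 19852 and 38051 CPM at 96 h against 3601 to 11191 CPM earlier. How much of the IGF2R count came from the cells themselves was not tested. GNPTG, a subunit of the enzyme that starts the mannose 6-phosphate tag, had 7.43 and 17.4 CPM at 48 h and 14.2 and 15.3 CPM at 96 h against 2.52 to 11.73 CPM earlier, and so overlapped.

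Lipid genes were led by SCD, the desaturase that makes monounsaturated fatty acids (chr10:100347233-100364826, plus strand). It had 621 and 591 CPM at 0 h, 605 and 711 CPM at 0.5 h, 977 and 962 CPM at 12 h, 711 and 627 CPM at 24 h, 1691 and 1521 CPM at 48 h, and 2283 and 1768 CPM at 96 h. The 12 h libraries stood above the other early ones and the late libraries above all, at 2.87 times the starting mean. SCD was also found in 76.2% of the wells with under 1000 genes, at 1953 CPM there against 949.6 CPM in kept wells. ATP8B2, a phospholipid flippase, had 19.1, 35.9, 27.7 and 30.0 CPM late against 5.78 to 12.5 CPM. ACAT2, which makes acetoacetyl-CoA, had 8.08, 17.4, 8.70 and 20.6 CPM against 2.59 to 7.70 CPM, with replicate 2 above replicate 1 at both late times. TECR, SLC44A2 and FMO1 overlapped with the earlier libraries. Under stricter limits on genes and mitochondrial UMIs the late mean of SLC44A2 was 0.8802 times its starting mean, against 2.69 in kept wells. The starting libraries held 7, 13, 26 and 9 wells within those limits, so this ratio rests on few UMIs.

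Proteins that act on growth factors outside the cell formed a further group. PAPPA, the protease that cleaves IGFBP4 and frees insulin-like growth factors, had 133 and 149.7 CPM at 48 h and 159.8 and 179 CPM at 96 h against 36.3 to 72.9 CPM earlier. HTRA1, a secreted serine protease, had 25.8 and 37.9 CPM at 48 h and 65.7 and 58.6 CPM at 96 h against 10.6 to 20 CPM. IGFBP4, the substrate of PAPPA and no member, was at 1524, 1285, 1040.3 and 954 CPM late, against 1910 to 2222 CPM at 12 and 24 h and 839 to 946 CPM at 0 and 0.5 h. PAPPA and HTRA1 were thus above all earlier libraries while IGFBP4 was below its 12 and 24 h libraries. PDGFC, a growth factor for PDGF receptors, had 10.3, 10.3, 25.3 and 20.6 CPM late against 3.37 to 8.72 CPM. SOCS2, a brake on growth hormone signalling, had 26.5, 25.1, 46.7 and 45.9 CPM against 7.33 to 15.5 CPM. The exons of SOCS2 overlap those of SOCS2-AS1 on the other strand, which met the same limits at 9.05, 6.66, 11.9 and 13.3 CPM late against 0.889 to 2.68 CPM, and with the strand setting not given in the sources used here reads of the pair cannot be told apart. The thrombin receptor F2R had 76.2, 104, 88.6 and 71.9 CPM against 24.0 to 56.1 CPM, and GPR176, an orphan receptor, 8.08, 5.64, 11.1 and 13.98 CPM against 1.83 to 3.02 CPM.

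WNT-related members were PTK7, PORCN and DKK3. PTK7, a receptor-like pseudokinase of planar cell polarity, had 10.7 and 17.9 CPM at 48 h and 12.7 and 9.32 CPM at 96 h against 1.04 to 2.07 CPM earlier. PORCN, which attaches the lipid that WNT proteins need for secretion, had 14.2, 18.97, 25.3 and 40.6 CPM against 5.48 to 9.81 CPM, and a single well held 37.7% of its UMIs in 96 h replicate 2. DKK3, a secreted member of the Dickkopf family, had 22.9, 23.6, 33.2 and 37.3 CPM against 6.53 to 15.1 CPM. All 3 were separate from the earlier libraries, and PTK7 was 7.51 times its starting mean, from 24 UMIs over the 4 starting libraries.

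Genes best known from neurons and axon guidance included the largest ratio. DNER, a transmembrane protein with EGF repeats that binds Notch (chr2:229357629-229714555, minus strand), had 1.83 and 0.894 CPM at 0 h, 2.13 and 2.59 CPM at 0.5 h, 2.77 and 1.64 CPM at 12 h, 2.0 and 2.199 CPM at 24 h, 8.40 and 11.8 CPM at 48 h, and 30.9 and 57.3 CPM at 96 h. It was near the level of a few UMIs until 24 h and highest at 96 h in both replicates, 14.5 times the starting mean. DPYSL3, a collapsin response protein of growth cones, had 16.2, 15.4, 36.4 and 28.6 CPM late against 2.61 to 6.54 CPM. SLC6A15, a transporter of neutral amino acids in brain, had 26.8, 31.8, 40.3 and 50.6 CPM against 6.71 to 13.4 CPM. TENM3, a teneurin of synaptic adhesion, had 16.5, 14.9, 34.0 and 23.3 CPM against 3.13 to 8.72 CPM. The late libraries were also above the earlier ones in the guidance receptor ROBO1 at 29.1 to 42.6 CPM against 10.7 to 17.2 CPM, the SNARE protein SNAP25 at 17.4 to 27.8 CPM against 5.18 to 14.9 CPM, the microtubule kinase DCLK2 at 19.8 to 26.2 CPM against 3.28 to 9.85 CPM, and NREP at 6.46 to 18.2 CPM against 1.47 to 4.09 CPM.

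**Figure D2:**
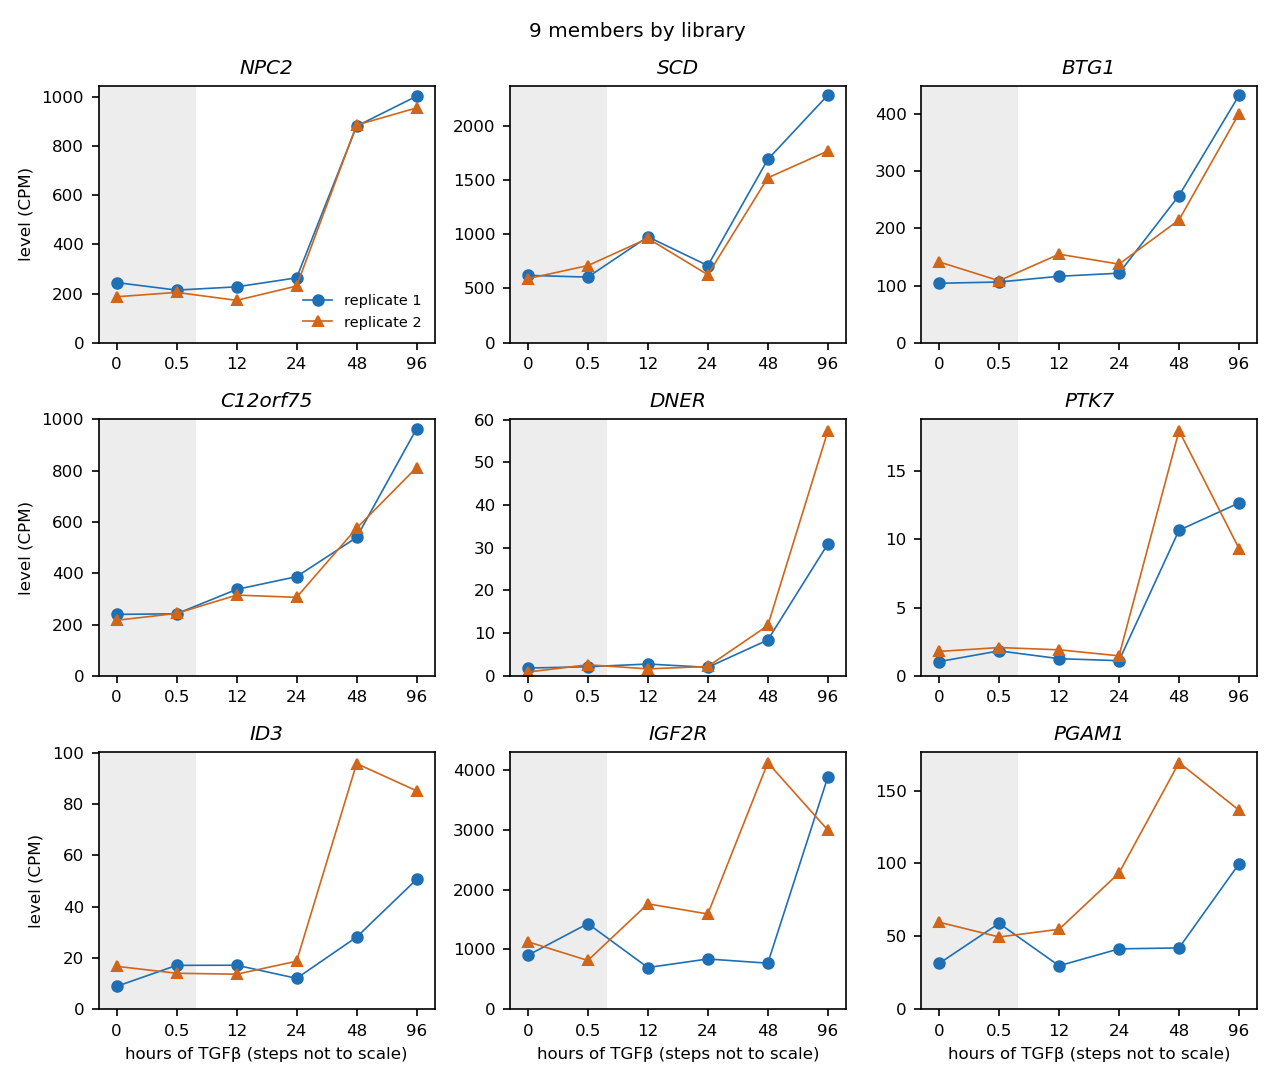
Level in CPM (vertical, from 0) against hours of TGFβ (horizontal, steps not to scale) for 9 members in replicate 1 (circles) and replicate 2 (triangles); grey marks the 0 and 0.5 h libraries that gave the starting mean. NPC2 lies at 882 to 1004 CPM at both late times in both replicates, DNER is highest at 96 h, and IGF2R and PGAM1 at 48 h differ between replicates (768 and 4124 CPM, 42.0 and 169 CPM).

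Members of transcription and growth arrest included BTG1. BTG1, an antiproliferative partner of the CCR4-NOT complex (chr12:92140278-92145846, minus strand), had 104 and 141 CPM at 0 h, 106 and 108 CPM at 0.5 h, 116 and 155 CPM at 12 h, 122 and 137 CPM at 24 h, 257 and 215 CPM at 48 h, and 433 and 401 CPM at 96 h. Both late times were above all earlier libraries, and the 96 h libraries were above the 48 h ones. ID3, an inhibitor of basic helix-loop-helix factors, had 28.1, 95.9, 50.6 and 85.2 CPM late against 8.88 to 18.7 CPM, separate but far from even, with replicate 2 the higher at both late times. In the wells with under 1000 genes ID3 was at 64.3, 114, 78.7 and 578 CPM late against 12.9 to 55.4 CPM earlier. Over all libraries that was 3.84 times its level in kept wells, and the part of this RNA in the ID3 count was not tested. HDAC5, a class IIa histone deacetylase, had 12.3, 9.23, 16.6 and 17.98 CPM against 1.04 to 2.77 CPM. NR4A3, an orphan nuclear receptor, had 11.6, 11.3, 16.6 and 9.99 CPM against 0.522 to 3.66 CPM. Both were near the level of a few UMIs before 48 h. RARB, the retinoic acid receptor beta, had 38.8, 30.8, 44.3 and 26.0 CPM against 11.1 to 24.8 CPM, and SLFN5, a Schlafen family protein, 17.1, 14.9, 33.2 and 40.0 CPM against 2.45 to 10.7 CPM with its lowest values at 12 h.

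Cytoskeletal and membrane members came next. CNN3, the actin-binding calponin of non-muscle cells, had 203, 313, 326 and 293 CPM late against 93.7 to 156 CPM. NEXN, an actin-binding protein of the Z-disc, had 12.9, 15.9, 29.3 and 17.98 CPM against 2.44 to 7.77 CPM. SGCD, a sarcoglycan of the dystrophin complex, had 27.1, 16.9, 38.0 and 37.3 CPM against 7.36 to 10.97 CPM, and was separate. FMNL3, an actin-nucleating formin, had 5.49, 7.69, 12.7 and 14.7 CPM against 1.52 to 4.36 CPM. ANTXR1, a collagen-binding receptor, had 265, 256, 218 and 232 CPM against 66.2 to 143 CPM, with 24 h replicate 2 its highest early library. P3H2, which hydroxylates collagen prolines, had 31.8 to 43.3 CPM against 11.5 to 19.9 CPM. FXYD6, a regulator of the sodium pump, had 6.46, 2.05, 10.3 and 14.7 CPM against 0.298 to 2.07 CPM, so that 48 h replicate 2 lay within the early range.

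Of the members tied to RNA and protein synthesis, 2 of 7 were separate. RPL28, a protein of the large ribosomal subunit, had 1461, 1892, 1346 and 2012 CPM late against 535 to 975 CPM, while the other ribosomal protein genes among the 77 that started at 100 CPM or more had late means of 0.539 to 1.77 times their starting means, with a median of 1.16. FIP1L1 was the other. BZW1, HNRNPL, HNRNPA1P48, THOC3 and MEX3B overlapped. Members with near-identical copies elsewhere (BZW1, HNRNPA1P48, PGAM1, RPL28, XAGE1B, CBWD6, MT1A, H1-3 and the 3 ANKRD36 genes) are uncertain, since the counting could divide reads between copies, and the exons of 38 of the 87 members overlap another gene.

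In 8 members the 48 h replicate 1 library was near the start and replicate 2 was at least 2.5 times higher, a group picked after the values were seen. These are IGF2R, PGAM1, HNRNPL, THOC3, CBWD6, FMO1, XAGE1B and MT1A. PGAM1, a glycolytic mutase, had 42.0 and 169 CPM at 48 h and 99.7 and 137 CPM at 96 h against 29.7 to 93.4 CPM earlier. HNRNPL, a splicing factor, had 14.5 and 53.3 CPM at 48 h and 27.7 and 34.0 CPM at 96 h against 9.33 to 22.7 CPM. Their 48 h means passed the limit through replicate 2 alone, which was also the library with the most pseudogene UMIs (1.83%, against 0.9995% in replicate 1). MT1A, a metallothionein, rested on few wells, 1 of which held 57.7% of its 26 UMIs in 96 h replicate 1. Without each gene's highest well in each library, 71 of the 87 members still met the limits. In the 206 wells left by stricter limits (3000 genes or more, 20% mitochondrial UMIs or fewer), 100 genes met the same rule and 26 of them are members. In the kept wells 65 genes met it without 48 h replicate 2, and 57 of them are members.

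The members nearest to each limit were as follows. FMNL3 at 1.499 and GNPTG at 1.499 times the start at 12 and 24 h were just inside, and GNG5 at 1.501 and RECK at 1.503 just outside. At the lower end SGCD at 0.799 and SLFN5 at 0.802 were the nearest inside, and SLC30A10 at 0.366, a manganese transporter at 37.5 CPM at 48 h and 14.5 CPM at 96 h, was the only gene left out there. SVIP at 2.03 and SLFN5 at 2.03 times the start at 48 h were inside, and FAM168A and TMEM121 at 1.99 outside. PET100 at 2.004 and OST4 at 2.01 times the start at 96 h were inside, and MDFIC at 1.99 and U2AF1L5 at 1.95 outside. By level at 96 h, ANKRD36B at 10.3 CPM and NCKAP5 at 10.3 CPM were inside, and TMEM54 at 9.95 CPM and TMEM45A at 9.68 CPM outside.

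Whether the members went on moving between 48 and 96 h was tested over all 10465 genes with enough counts, which held all 87 members. The choice set no order of these times, but it bounded both from below. Its limit of 10 CPM applied to 96 h alone, and 172 genes failed only that limit. The direction of the members' changes is therefore not free of the choice. DNER, BTG1, SLFN5 and C12orf75 were higher at 96 h than at 48 h, 4 of 87 members, and 0 were lower. Over all genes 0.803% were called higher and 0.411% lower (edgeR quasi-likelihood test, Benjamini-Hochberg adjusted p under 0.05). The median log2 change of the members was 0.23, against -0.01 over all genes, and 63 of 87 were positive, against 48.7% of all genes. DNER had 30.9 and 57.3 CPM at 96 h against 8.40 and 11.8 CPM at 48 h, a log2 change of 2.13 ± 0.35 (SE, edgeR adjusted p = 0.00181). BTG1 had 433 and 401 CPM against 257 and 215 CPM, a log2 change of 0.77 ± 0.16 (edgeR adjusted p = 0.0125). C12orf75, a small protein first described as overexpressed in colon carcinoma (chr12:105235290-105396097, plus strand), had 964 and 812 CPM against 539.8 and 576 CPM, a log2 change of 0.63 ± 0.16 (edgeR adjusted p = 0.0433). SLFN5 had 33.2 and 40.0 CPM against 17.1 and 14.9 CPM, a log2 change of 1.14 ± 0.28 (edgeR adjusted p = 0.0423). In each of these 4 genes both libraries of 96 h were above both of 48 h. HTRA1 missed the threshold with a log2 change of 0.94 ± 0.24 (edgeR adjusted p = 0.0578). The calls rest on 2 libraries a time: without 96 h replicate 2 they were 0, without 96 h replicate 1 only DNER (edgeR adjusted p = 0.00399), without 48 h replicate 1 or either 0.5 h library 2 (DNER and BTG1), without 48 h replicate 2 DNER and 2 members outside these 4, and in the 206 stricter wells 0. SLFN5 was not called by DESeq2 (adjusted p = 0.176) or in edgeR on sums thinned to the smallest library (adjusted p = 0.0781), and C12orf75 not with RLE size factors in edgeR (adjusted p = 0.05005). The labels do not say whether the 2 libraries of a time are separate cultures, so these p-values measure the spread between libraries, which may be technical.

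**Figure D3:**
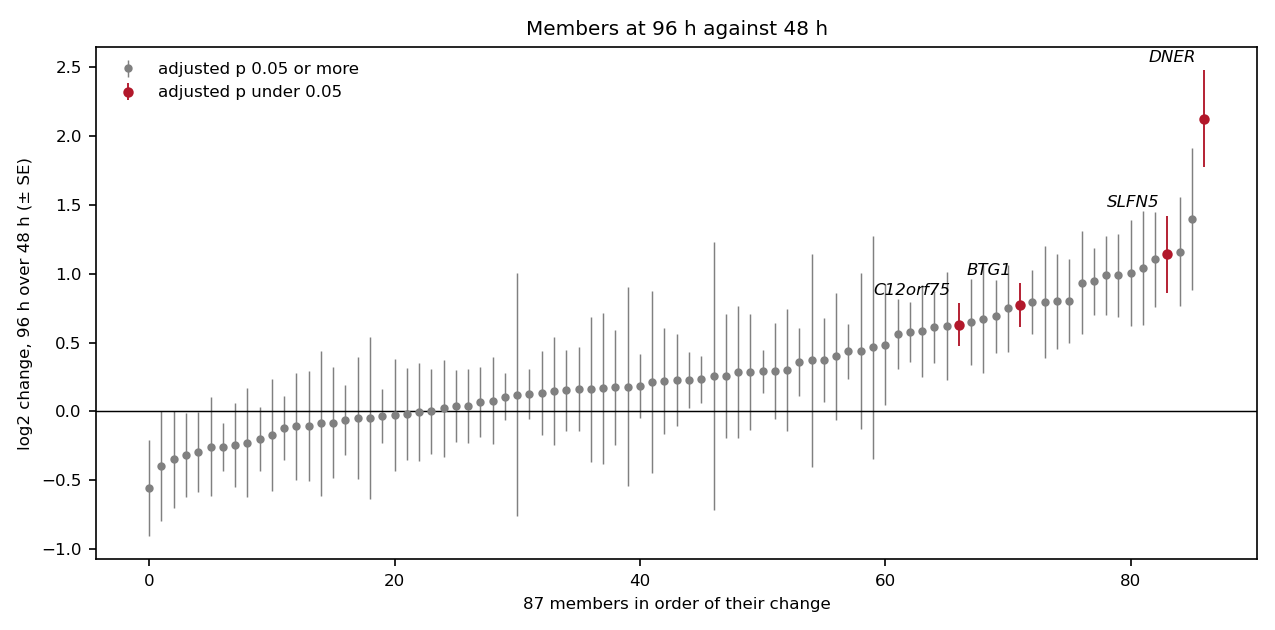
log2 change of each member, 96 h over 48 h (points, with SE bars), in order of size; red points passed an adjusted p of 0.05 over all genes. Of the 87 points 63 lie above 0, and the 4 called members are DNER at 2.13, SLFN5 at 1.14, BTG1 at 0.77 and C12orf75 at 0.63.

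At the earlier steps the members gave no call. Between 24 and 12 h 0 of 87 passed, as did 0% of all genes, and 8 members had an unadjusted p under 0.05 in edgeR, as did 5.47% of all genes (DESeq2 also called 0). SLFN5 was the nearest, with 8.89 and 10.6 CPM at 24 h against 3.27 and 2.45 CPM at 12 h, a log2 change of 1.78 ± 0.36 (edgeR adjusted p = 0.115). Between 0.5 and 0 h 0 of 87 passed, against 0.44% of all genes, and 5 members had an unadjusted p under 0.05 in edgeR, as did 3.08% of all genes (DESeq2 called 0). MEX3B, an RNA-binding protein, had 9.76 and 6.997 CPM at 0.5 h against 2.09 and 3.58 CPM at 0 h, a log2 change of 1.52 ± 0.39 (edgeR adjusted p = 0.116). NR4A3, known as an immediate early gene, had 3.66 and 2.59 CPM against 0.522 and 0.894 CPM, a log2 change of 2.05 ± 0.64 (edgeR adjusted p = 0.472).

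The late difference itself was tested in wells that had no part in the choice. These are 127 wells with at least 2000 genes that broke the limits on kept wells, 119 of them by holding more than 40000 UMIs. They come from the libraries that chose the members, so an effect of a whole library is in both sets of wells. The test is thus not independent of the choice. There were none in 12 h replicate 2 and 48 h replicate 2, so that 48 h is 1 library. Elsewhere the wells per library were uneven, from 2 to 38, with the most in 0.5 h replicate 1. Replicate 2 was always small: 3 wells (0 h), 2 wells (0.5 h), 2 wells (24 h), 6 wells (96 h). Its CPM values below therefore rest on a few cells each. Of 70 members that passed the filter on low counts, 35 were called higher at 48 and 96 h than at 0 and 0.5 h, beside 5.82% of the 7893 genes tested (edgeR). A member can pass that filter through its late libraries alone, and with no filter 34 of 87 members were called beside 3.44% of genes. NPC2 had 929 CPM at 48 h and 1161 and 675 CPM at 96 h against 283, 211, 222 and 211 CPM at 0 and 0.5 h, a log2 change of 2.02 ± 0.26 (edgeR adjusted p = 1.0e-12). C12orf75 had 614, 827 and 725 CPM against 140.2, 140.5, 246 and 233 CPM, a log2 change of 1.95 ± 0.27 (edgeR adjusted p = 2.2e-11). SCD had 1534, 2327 and 1385 CPM against 711, 632, 579 and 720.4 CPM, a log2 change of 1.43 ± 0.26 (edgeR adjusted p = 2.9e-06). BTG1 had 229, 378 and 428 CPM against 170.3, 52.7, 86.9 and 99.7 CPM, a log2 change of 1.52 ± 0.26 (edgeR adjusted p = 4.2e-07). In these 4 members, picked from the 35 called, no late library overlapped a starting one. The share of all genes without such an overlap was not counted in these wells, so nothing is read from it. For most genes the fit in these wells took the spread from all genes together. Its p-values therefore do not measure a gene's own spread between libraries. DNER counted 74 UMIs late and 2 at the start (edgeR adjusted p = 0.000566), too few at the start for its fitted change to be read as a size.

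The same wells set limits to the other members. IGF2R had 788, 1758 and 2493 CPM late against 851, 720.0, 1054 and 698 CPM, a log2 change of 0.67 ± 0.26 (edgeR adjusted p = 0.0911). PGAM1, THOC3, CBWD6, FIP1L1, TECR and ANKRD36B were not called, with log2 changes of 0.56, 0.18, 0.11, 0.40, 0.54 and 0.45, and MOB2 had 16 UMIs late and 26 at the start with a log2 change of -0.02 ± 0.69. DESeq2 called 6 members in these wells (NPC2, C12orf75, SCD, BTG1, CNN3 and RPL28) of the 55 to which it gave an adjusted p, beside 1.55% of genes. Without 0.5 h replicate 1 edgeR called 17 of 61 members tested, beside 3.08% of genes. Without 0 h replicate 1 it called 21 of 78 beside 3.41%, and without 96 h replicate 1 21 of 54 beside 3.96%. In all 538 left-out wells with at least 1000 genes, a set added after the data were seen, 29 of 46 members were called higher beside 6.19% of genes.

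**Figure D4:**
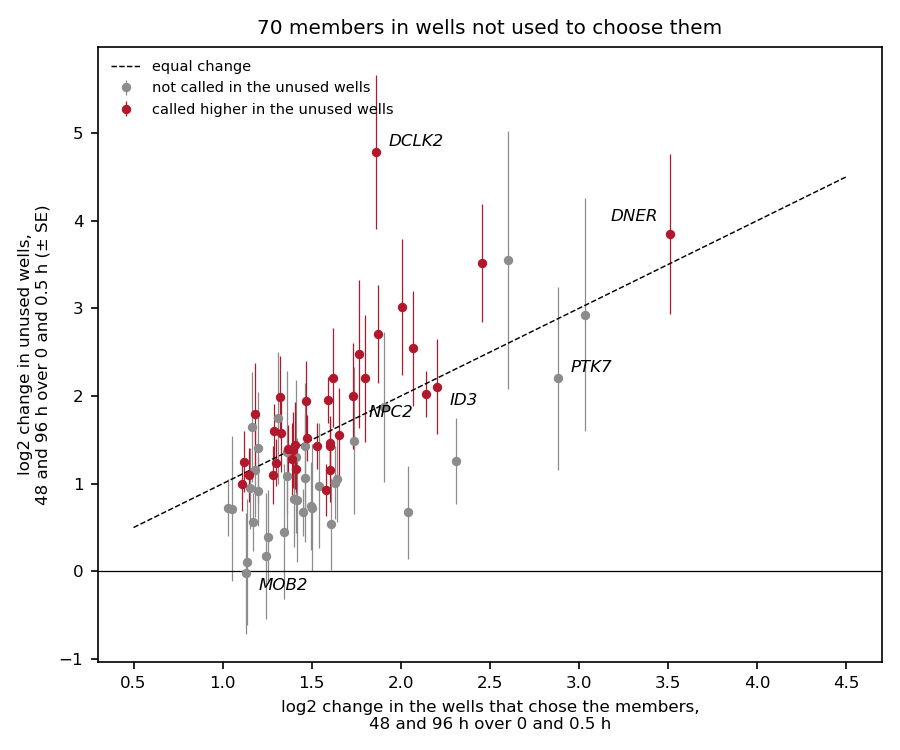
log2 change of 70 members, 48 and 96 h over 0 and 0.5 h, in the wells that chose them (horizontal) and in the 127 wells that did not (vertical, with SE bars); the dashed line marks equal change. Red marks the 35 members called higher in the unused wells; NPC2 lies at 2.02 on the vertical axis and MOB2 at -0.02, and changes of members with few UMIs at the start, such as DNER and DCLK2, have no reliable size.

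The first day was also tested there. At 12 h these wells come from 1 library, and 24 h replicate 2 holds 2 of them with 19589 protein-coding UMIs. Few calls there cannot show that the members were flat. The median log2 change of the 70 members at 12 and 24 h over 0 and 0.5 h was 0.04, and 37 were positive. Over all 7893 genes tested in these wells the median was -0.015, and 48.8% were positive. At 12 and 24 h against 0 and 0.5 h 1 of 70 members was called, beside 3.69% of genes called higher and 1.89% called lower. This was C12orf75, with 439, 369 and 153 CPM at 12 and 24 h against 140.2, 140.5, 246 and 233 CPM, a log2 change of 1.05 ± 0.28 (edgeR adjusted p = 0.00534). That call was lost when replicate 1 of 0, 0.5 or 24 h, or replicate 2 of 96 h, was left out, and DESeq2 made none. Its value of 153 CPM came from the 2 wells of 24 h replicate 2. In all 538 left-out wells 2 members were called higher beside 4.5% of genes. In the kept wells the median of the 12 and 24 h mean over the starting mean was 1.21, and 72 of 87 members were above 1, values that the choice bounded.

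Cell by cell, more members were found in a late cell than in an early one at equal depth. After each cell was thinned to the same number of UMIs, which kept 1684 of the 1871 cells and left out the shallower ones, the median cell held a UMI of 25 and 29 members at 48 h and 29 and 32 members at 96 h, against 15 to 19 in the 8 earlier libraries. Without thinning the medians were 36, 30, 42.5 and 43 against 21 to 25, and since the members were chosen for these sums the values are a description. NPC2 was found in 100% of thinned cells at 48 and 96 h against 82.3% to 95.4% earlier, and in 30.2% to 45.5% of the late wells with under 1000 genes against 9.68% to 19.4% of the earlier ones. DNER was found in 9.30% and 12% of thinned cells at 48 h and 33.3% and 33.3% at 96 h, against 0.637% to 3.91% earlier, and in 0.508%, 4.48%, 5.86% and 5.14% of the late wells with under 1000 genes against 0% to 0.645% of the earlier ones. As a share of the UMIs in those wells DNER was at 4.59, 68.3, 74.5 and 110.3 CPM late, and over all libraries 3.88 times its level in kept wells, and the part of this RNA in the DNER count was not tested. BTG1 was found in 90.7%, 87%, 98.0% and 93.7% of late cells against 64.6% to 76.6% earlier. PTK7 was found in 9.52% to 18% of late cells against 0.529% to 3.33%, so that most late cells gave no UMI of it at this depth.

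**Figure D5:**
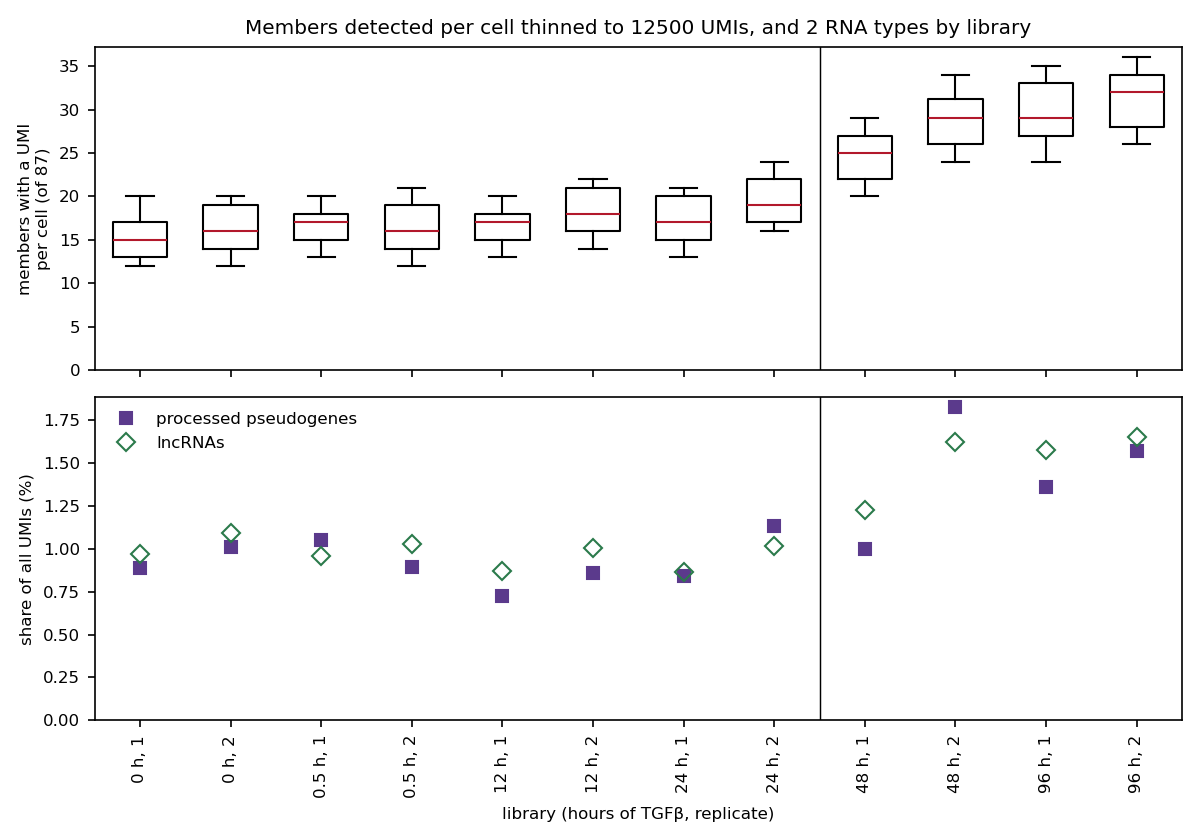
Upper panel, number of the 87 members with at least 1 UMI per cell after thinning to equal UMIs (boxes from the lower to the upper quartile with the median in red, whiskers at the 10th and 90th percentiles) by library; lower panel, share of all UMIs in processed pseudogenes (squares) and lncRNAs (diamonds). Medians are 25 to 32 members in the 4 late libraries and 15 to 19 in the earlier ones; 48 h replicate 1 has 0.9995% pseudogene UMIs and 48 h replicate 2 has 1.83%.

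Other genes of the same pathways, taken from lists of known roles and not members themselves, were tested between 48 and 96 h and 12 and 24 h. The lists were written with earlier results of these data known, so the counts by list are not independent of these data. Over all genes 9.4% were called higher and 8.59% lower (edgeR). Of 25 other lysosome and autophagy genes 15 were higher and 0 lower, with a median log2 change of 0.60 against 0.02 over all genes. GRN, the progranulin precursor, had 304, 240.5, 328 and 351 CPM late against 121 to 170.3 CPM at 12 and 24 h, a log2 change of 1.004 ± 0.12 (edgeR adjusted p = 1.2e-06). GABARAPL1, an autophagosome protein, had 52.0, 62.5, 72.8 and 51.3 CPM against 18 to 33.5 CPM, a log2 change of 1.33 ± 0.16 (edgeR adjusted p = 1.1e-06). NPC1, the membrane partner of NPC2, had 19.7, 28.2, 34.0 and 38.0 CPM against 14.9 to 26.7 CPM, a log2 change of 0.58 ± 0.19 (edgeR adjusted p = 0.0348). GRN and GABARAPL1 did not overlap and NPC1 did. HEXA, LIPA, LAMP1, LAMP2, CTSB and PSAP were also called higher.

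Lists around other members held calls in both directions. Of 23 other cholesterol and fatty acid synthesis genes 6 were higher (INSIG1, SREBF1, FADS1, FADS2, DHCR7 and LSS) and HMGCS1 was lower. Of 12 IGF genes STC1, IGFBP3 and IGFBP7 were higher and IGFBP4 lower. Of 20 growth arrest and p53 target genes 6 were higher and SESN3 lower, and of 11 neuronal and secretory granule genes 5 were higher (NPTX1, VGF, SYT1, NEFL and CPE) and 0 lower. NPTX1, a neuronal pentraxin, had 222, 267, 296 and 318 CPM late against 5.54 to 31.1 CPM, a log2 change of 4.01 ± 0.24 (edgeR adjusted p = 2.0e-07). Of 22 WNT and Hedgehog genes 4 were higher (FZD2, SFRP1, WNT5B and GLI1) and 4 lower, among them DKK1 with 32.6, 45.6, 6.33 and 6.66 CPM against 128 to 218 CPM (log2 change -3.36 ± 0.17, edgeR adjusted p = 7.9e-13), the opposite of the member DKK3. Of 18 actin and muscle-type genes 6 were higher and 7 lower, and of 21 hypoxia and glycolysis genes 5 and 4. The collagen and matrix list, which holds 0 members, had 14 of 32 higher and 3 lower, and of 18 histone genes 5 were higher and 1 lower.

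The remaining lists held 0 members. Of 14 interferon-stimulated genes 1 was higher and 3 lower, of 5 antigen presentation genes 1 and 0, of 8 complement and acute phase genes 2 and 4, and of 12 chemokine and cytokine genes 1 and 2. Of 13 keratinization genes 3 were higher and 6 lower, of 21 EMT factors and cadherins 4 and 5, of 25 solute carriers 4 and 4, and of 14 eicosanoid and steroid enzymes 3 and 5. Among markers of cell types, 5 of 7 epithelial genes were lower (CDH1, CLDN4, KRT8, KRT18 and KRT19) and 0 higher, LUM was higher among 2 fibroblast genes, ESAM was lower as the only endothelial gene tested, and the only immune gene tested was not called.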

How the data were processed

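A549 cells at 6 time points of TGFβ, 2 libraries each, were profiled by CEL-Seq2, in which 1 propidium iodide negative cell is sorted per well. The deposited values are raw counts of UMIs per gene and well; per the labels, the authors trimmed reads (Trim Galore 0.6.7), aligned them to GRCh38 (HISAT2 2.2.1), assigned them to genes (featureCounts 2.0.1) and counted UMIs (UMI-tools). For the strand setting and annotation release, the sources used here give no value. All wells were deposited, 4608 in 12 libraries, and 0 per-sample columns were left unused.

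Wells with 100 to 40000 UMIs, 2000 to 7000 genes and at most 35% mitochondrial UMIs were kept, 1871 in all. No doublet caller was run, since single cells were sorted. UMIs of protein-coding genes were summed per library, and CPM were taken over these sums. Because 3′ ends are counted, levels were not divided by length. Sums were tested with edgeR 4.0.16 (R 4.3.3, limma 3.58.1; TMM factors, filterByExpr, quasi-likelihood test over all 12 libraries with 1 mean per time, Benjamini-Hochberg adjustment over all genes tested), with the same fit in wells outside the limits. DESeq2 1.42.0, other scaling, no filter, stricter wells, thinned sums, a replicate block and leaving out each library were alternatives. Tables were handled in Python 3.11.15 (numpy 2.4.6, pandas 2.3.3, scipy 1.17.1) and drawn with matplotlib 3.10.9. Gene positions are from GENCODE 44.

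Members were named where they were among the 15 highest at 96 h or the 15 with the largest late ratio and at least 10 starting UMIs. They were also named where within 2 of a limit, called in a test, or among the 6 with the lowest change of those not called in unused wells. Further members are given with their role group and were chosen after their values were seen. The members and lists were chosen with earlier results of these data known. Values of 1 member are not reported here, though it is included in the counts.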

Additional observations from a re-analysis of the deposited data

Results flagged for a closer look

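Genes that are not protein-coding lie outside the comparisons above, and 55 of them met the same limits of level and time. They were 48 processed pseudogenes, 2 transcribed processed pseudogenes and 5 lncRNAs (MALAT1, SOCS2-AS1, LINC01833, SIRLNT and LINC02609). MALAT1, a nuclear lncRNA, had 4480 and 7962 CPM at 48 h and 7381 and 8435 CPM at 96 h against 1268 to 2616 CPM earlier, with a late mean of 3.36 times the starting mean, and the 4 late libraries did not overlap the 8 earlier ones. No untreated samples of the late times were analysed here, so these levels were read against the starting libraries, and no test was run on them because the same limits chose them.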

How the results depend on the processing

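The number of genes meeting the limits was 13 with a fold limit of 3 and 47 with narrower limits on the first day. When 1 library was left out it was 65 (without 48 h replicate 2, 57 of the 87 among them) to 103 (without 48 h replicate 1, 77 of the 87). With library sums thinned to the smallest library it was 90, of which 56 were members. With TMM factors it was 93 (84 of the 87 among them), and under stricter limits on wells (3000 genes or more, 20% mitochondrial UMIs or fewer) it was 100, of which 26 were shared. In those wells 0 members were called between 96 and 48 h, where neither DNER nor SLFN5 had enough counts to be tested, and 53 list genes were called against 141. Which members were called between 96 and 48 h changed with the library left out, as given above. Leaving out 1 library gave 17 to 36 higher calls in unused wells, beside 3.08% to 7.26% of genes, and 0 to 2 calls there at 12 and 24 h.

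Between 24 and 12 h the calls were 2 with no filter. In unused wells DESeq2 called 6 members late and 0 at 12 and 24 h, left-out wells with 1000 or more but under 2000 genes gave 7 of 16 members beside 6.84% of genes, and all left-out wells 2 at 12 and 24 h. Without 48 h replicate 1 the late comparison, and without 12 h replicate 1 the comparison of 12 and 24 h, had no library of that time in unused wells and gave no value. Deviations of same-numbered libraries correlated at 0.140 to 0.275 between 0, 12, 24 and 48 h and at -0.0926 to 0.0870 in pairs with 0.5 or 96 h, so the numbers were not taken as a pairing over all times. With the replicate number as a block, 5 members were called between 96 and 48 h (4 shared), beside 237 of all genes. With it 1 member was called between 24 and 12 h, and 33 of 70 in unused wells beside 5.26% of genes. DNER kept its call between 96 and 48 h under every alternative that tested it except without 96 h replicate 2. In the stricter wells the ratio of late to starting mean was 0.8802 for SLC44A2, against 2.69 in kept wells, 1.02 for FAM92A and 1.35 for GNPTG. These wells were 6 to 58 per library, with 132546 protein-coding UMIs in the smallest sum. At the low levels of these members the ratios have no reliable size or direction. Depth limits members such as PTK7 and NR4A3, where the starting libraries hold a few UMIs each.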
